A study of Homo sapiens with 6 samples.

Results

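RAB proteins are the largest branch of the RAS-like small GTPases and set the identity of the membranes between which a cell moves its cargo. The RAB genes described here are all rows of the deposited count tables whose symbol starts with RAB and a digit, leaving out symbols that contain IP, GAP, GEF or IL, which name effectors and regulators. The rule used the symbol and no measured value. It found 63 of the 23228 genes in the tables, among them 1 readthrough row (RAB4B-EGLN2) and 1 pseudogene (RAB9BP1). RAB7L1 and RAB39 are older symbols, which RefSeq gives as RAB29 and RAB39A.

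The data are 6 RNA-seq libraries of polyadenylated RNA from the human triple-negative breast cancer line MDA-MB-231, whose cells are spindle-shaped and mesenchymal-like. Cells of 3 libraries carried lentiviral shRNA against SCUBE3, a secreted protein of the cell surface and matrix, and are labelled knockdown. Cells of the other 3 carried scrambled shRNA. Both groups were grown in DMEM with serum and selected with puromycin for a week. The labels name no clone and no shRNA sequence, and they give no sign that replicates were grown apart, so the p-values given here cover the spread between libraries and no more, and that spread may be technical. The labels say that SCUBE3 was checked by western blot, a measurement not used here.

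A RAB protein is a switch. Exchange factors load it with GTP and GTPase-activating proteins return it to the GDP form. On the membrane the GTP form binds effectors, such as tethers, motors and lipid enzymes. RAB proteins reach membranes through isoprenoid lipids joined to cysteines at their C-terminus by the enzyme RAB GGTase, to which an escort protein (REP) presents them. GDP dissociation inhibitors (GDI) extract the GDP form from membranes.

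The coding ends show how these cysteines are placed. Below are the last 30 coding bases before the stop codon of 8 members, from GENCODE release 29 transcripts, 5′ to 3′, with cysteine codons in capitals. RAB31 and RAB32 have the pair at the very end, RAB3D, RAB7A and RAB39 have them separated by 1 codon, RAB17 and RAB38 place them further in, and RAB8A has a single cysteine codon followed by 3 others.
RAB31: ccaaccatgcaagccagccgccggTGCTGT
RAB32: ttgagagcagagaacaaatcccagTGTTGC
RAB3D: ccagccccccagcccagcagcTGCagcTGC
RAB7A: gccaaggcctcggcagaaagcTGCagtTGC
RAB39: gcagtaaagcccaggaaagaaTGCttcTGC
RAB17: cccgcgaggcaggccaaaTGCTGCgcccac
RAB38: gttgccagcTGCtctggcTGTgccaaatcc
RAB8A: aggagcagctttttccgaTGTgttcttctg

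Reads in genes numbered 24249429 to 25520901 in the libraries labelled knockdown and 21348509 to 24234762 in the scramble libraries. SCUBE3 itself had 99, 107 and 101 reads in the libraries labelled knockdown, against 96, 91 and 80 in the scramble libraries. The groups overlapped in CPM, with a log2 fold change of 0.03 ± 0.14 (SE, edgeR adjusted p = 0.871), so the SCUBE3 RNA in these libraries does not show the labelled knockdown, and the group is named by its label throughout. All 6 genes taken as markers of MDA-MB-231 (VIM, CD44, EGFR, AXL, MSN and CAV1) were at 220 CPM or more in both group means. They also differed between the groups, with log2 fold changes of 1.10 for CAV1 and 0.86 for CD44, and of -1.15 for MSN, -0.87 for VIM, -0.84 for EGFR and -0.17 for AXL. MLANA had 0 reads in every library, PTPRC had 11 reads summed over the libraries labelled knockdown and 9 over the scramble libraries, and ESR1 had 0 in the libraries labelled knockdown and 8 in the scramble libraries. CDH1, a marker of epithelial cells, was higher in the libraries labelled knockdown, with 152 reads against 3 in the scramble libraries. The other epithelial or breast genes went in different directions: log2 fold changes were 0.08 for EPCAM (not past the threshold), -0.10 for KRT8, -0.37 for KRT18 and -1.05 for ERBB3, while GATA3 rose by 1.39. PGR was lower, with 0 reads in the libraries labelled knockdown against 66 in the scramble libraries. PECAM1 and COL1A1, markers of endothelial cells and fibroblasts, rose by 1.39 and 1.21 on the log2 scale, at group means of 0.975 to 9.24 CPM. The share of reads aligned to several places was 29.4% ± 0.175 (SD, n = 3) in the libraries labelled knockdown and 34.1% ± 0.106 in the scramble libraries. That share differed with the smallest exact permutation p that 3 against 3 libraries allow, 0.1. The part of these differences in the RAB values was not tested.

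Almost every RAB gene measured with enough reads differed between the groups, and so did most other genes. Of 63 members, 7 had no read in any library and 5 more had too few to test. The other 51 passed the low-count filter, 47 of them in both groups, while RAB17, RAB37, RAB42 and RAB6B passed only through the libraries labelled knockdown. RAB17 and RAB42 reached its cut-off in no scramble library, while RAB37 and RAB6B missed it in a single scramble library. Their selection thus favoured a difference between the groups. Among the 51 tested, 31 were higher in the libraries labelled knockdown, 18 were lower and 2 did not pass the threshold (quasi-likelihood test of edgeR, with p adjusted by Benjamini-Hochberg over all genes tested and a threshold of 0.05). Members called in either direction came to 96.1% of those tested, beside 85.9% of all 13606 genes tested. Of all genes tested, 43.4% were higher and 42.5% were lower. CPM values of the groups did not overlap for 48 tested members, beside 85.8% of all genes tested.

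The sizes of the changes were mostly small. A log2 fold change of 1 or more in size was reached by 13 tested members, 25.5%, beside 31.2% of all genes tested. Of these, 10 were higher, beside 17.5% of all genes, and 3 were lower, beside 13.8% of all genes. The median size of the log2 fold change was 0.46 over the tested members and 0.64 over all genes tested, and the signed medians were 0.25 and 0.01. In bulk RNA, fewer cells that express a gene and less of its RNA per cell cannot be told apart.

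**Figure D1:**
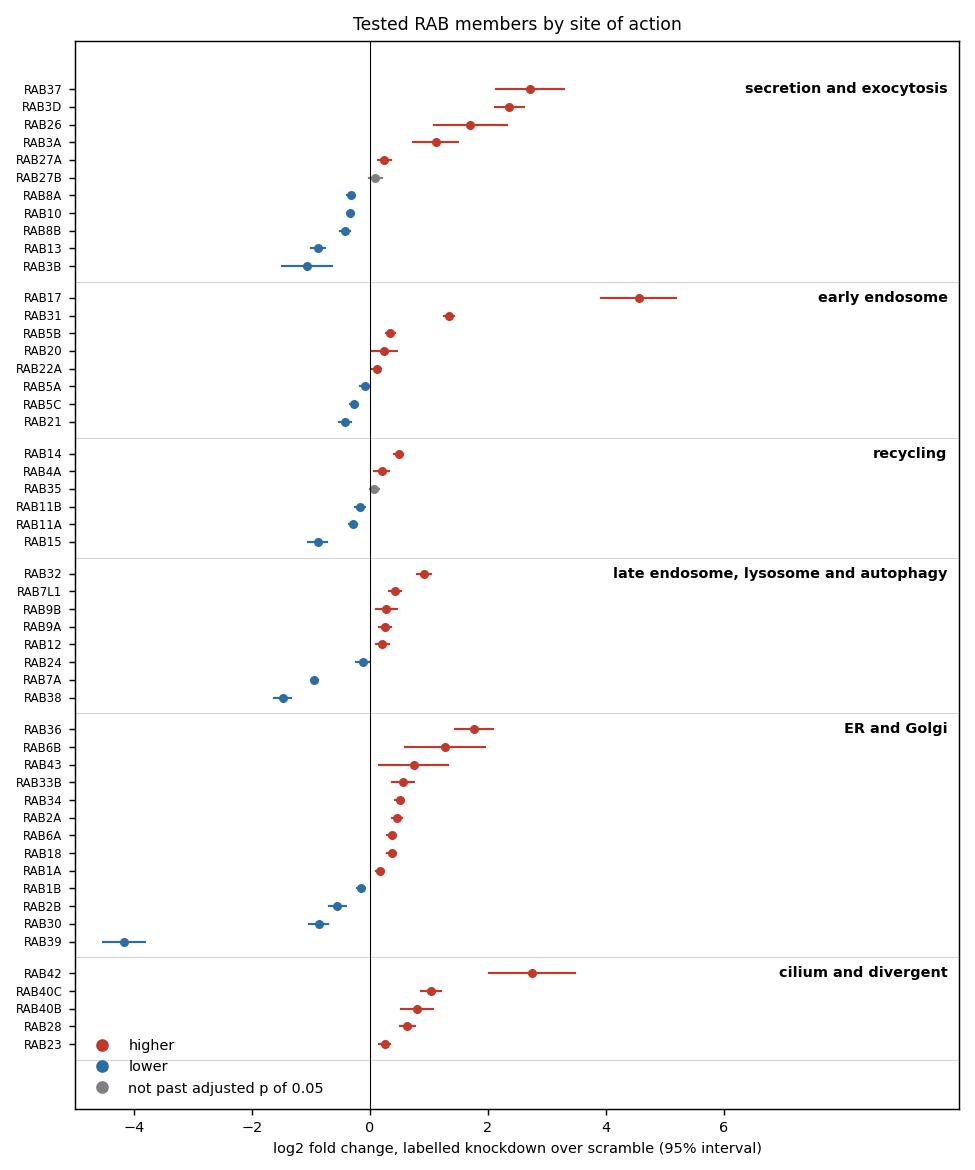
Log2 fold change (x axis, labelled knockdown over scramble, with its 95% interval) of the 51 tested RAB members, grouped by the role assigned to each. RAB17 lies furthest to the right at 4.56 and RAB39 furthest to the left at -4.17, while most members lie within 1 of 0.

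Of 11 tested RABs of secretion and exocytosis, 5 were higher in the libraries labelled knockdown, 5 were lower and 1 did not pass the threshold, shares close to the 43.4% higher and 42.5% lower of all genes tested. The higher members were RAB3A, RAB3D, RAB26, RAB37 and RAB27A, which act on secretory granules and related regulated compartments. The lower members were RAB8A, RAB8B, RAB10 and RAB13, which serve polarized and constitutive delivery to the plasma membrane, and RAB3B, which acts on secretory granules as well. This grouping by route was made after the values were seen and was not tested.

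RAB3D, a protein of secretory granules, had 317, 354 and 326 reads in the libraries labelled knockdown, against 67, 51 and 53 in the scramble libraries. Its mean level was 13.2 ± 0.478 CPM in the libraries labelled knockdown and 2.55 ± 0.239 in the scramble libraries (SD, n = 3 each), a log2 fold change of 2.37 ± 0.12 (SE, adjusted p = 7.88e-21). All 3 libraries labelled knockdown lay above all 3 scramble libraries. RAB37, described on granules of mast cells, had 60, 74 and 62 reads in the libraries labelled knockdown, against 4, 11 and 11 in the scramble libraries, a log2 fold change of 2.72 ± 0.29 (adjusted p = 3.24e-11). RAB26, found on secretory granules and synaptic vesicles, had 29, 54 and 36 reads in the libraries labelled knockdown, against 12, 9 and 11 in the scramble libraries, a log2 fold change of 1.71 ± 0.30 (adjusted p = 3.22e-06). Neither RAB37 nor RAB26 overlapped between the groups, but the lowest counts behind them are single to low double digits per library. RAB37 passed the low-count filter only through the libraries labelled knockdown, so its p-value is a description.

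RAB3A, the main RAB of synaptic vesicles in neurons, had 90, 89 and 71 reads in the libraries labelled knockdown, against 32, 34 and 36 in the scramble libraries. Its log2 fold change was 1.11 ± 0.19 (adjusted p = 1.30e-06). RAB3B went the other way within the same subfamily. It had 33, 33 and 31 reads in the libraries labelled knockdown, against 75, 42 and 64 in the scramble libraries, a log2 fold change of -1.07 ± 0.21 (adjusted p = 1.74e-05). The groups of both genes did not overlap.

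RAB10 and RAB8A, which carry cargo such as glucose transporters and ciliary or basolateral proteins, were among the 5 members with the most reads. RAB10 stood at 232.9, 229.0 and 233.8 CPM in the libraries labelled knockdown, against 290.5, 288.3 and 296.4 in the scramble libraries, a log2 fold change of -0.33 ± 0.03 (adjusted p = 1.34e-12). RAB8A stood at 159.9, 165.9 and 160.1 CPM in the libraries labelled knockdown, against 200.5, 202.7 and 201.9 in the scramble libraries, a log2 fold change of -0.32 ± 0.03 (adjusted p = 4.09e-11). Both were lower in every library labelled knockdown than in any scramble library, with a ratio of 0.795 for RAB10 and 0.803 for RAB8A. RAB13, which acts at tight junctions and the leading edge, had the largest fall of this delivery group, -0.87 ± 0.06 (adjusted p = 4.67e-14), and RAB8B changed by -0.42 ± 0.04.

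RAB27A and RAB27B, which dock secretory lysosomes and exosome-bearing endosomes at the plasma membrane, differed little. RAB27A averaged 47.2 CPM in the libraries labelled knockdown and 39.8 in the scramble libraries, a log2 fold change of 0.24 ± 0.05 (adjusted p = 8.05e-05). RAB27B did not pass the threshold. Its log2 fold change was 0.09, with a 95% interval of -0.02 to 0.20 (adjusted p = 0.124).

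Of 8 tested early endosomal members, 5 were higher and 3 were lower, so that all 8 were called, beside 85.9% of all genes tested. RAB17, an epithelial RAB of apical recycling and transcytosis, had the largest log2 fold change of any tested member. It had 98, 84 and 93 reads in the libraries labelled knockdown, against 5, 3 and 2 in the scramble libraries. Its mean level was 3.64 ± 0.358 CPM in the libraries labelled knockdown and 0.148 ± 0.0604 in the scramble libraries, a log2 fold change of 4.56 ± 0.31 (adjusted p = 1.23e-16). RAB17 passed the low-count filter only through the libraries labelled knockdown, so it had to differ and its p-value is a description. Of the epithelial markers given above, CDH1 was higher in the same libraries, EPCAM did not pass the threshold, and KRT8, KRT18 and ERBB3 were lower. Their part in the RAB17 result was not tested.

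RAB31, which moves cargo between the trans-Golgi and early endosomes, was the most abundant of the large increases. It stood at 119.0, 117.4 and 117.9 CPM in the libraries labelled knockdown, against 47.4, 46.1 and 46.6 in the scramble libraries. The log2 fold change was 1.34 ± 0.04 (adjusted p = 1.81e-27), and the SD within each group was under 1 CPM. RAB22A, its nearest relative, rose by 0.12 ± 0.04 on the log2 scale (adjusted p = 0.00385).

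The 3 RAB5 genes, which drive fusion of early endosomes, did not move together. RAB5C stood at 231.5, 240.0 and 240.8 CPM in the libraries labelled knockdown, against 279.3, 295.9 and 284.7 in the scramble libraries, a log2 fold change of -0.27 ± 0.03 (adjusted p = 6.42e-10). RAB5B rose by 0.35 ± 0.04 (adjusted p = 1.98e-10). RAB5A had a log2 fold change of -0.09 ± 0.04 (adjusted p = 0.0283), and this call was lost without labelled knockdown replicate 1, 2 or 3 or scramble replicate 1, with adjusted p of 0.0551 to 0.122. RAB21, which accompanies integrins into endosomes, changed by -0.42 ± 0.05. RAB20 changed by 0.25 ± 0.11 and its groups overlapped. Its call was lost without labelled knockdown replicate 2 or 3 or scramble replicate 1 or 3, with adjusted p of 0.0657 to 0.271.

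**Figure D2:**
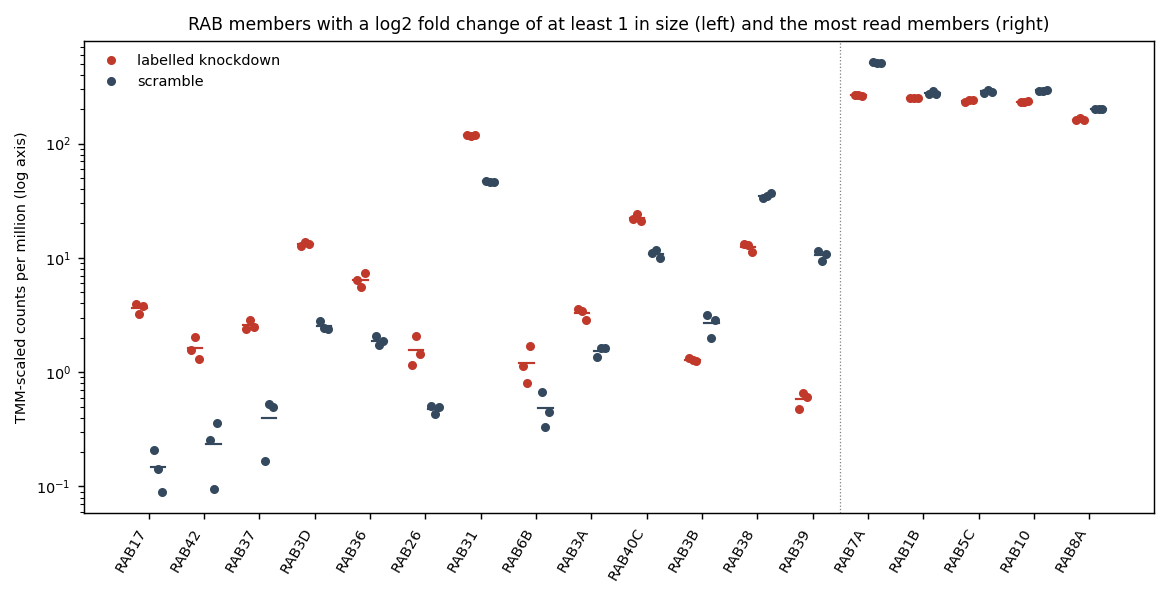
Level of the RAB members named with values in every library (y axis, CPM on a log scale), with 1 point per library, a short line at each group mean, and labelled knockdown to the left of scramble for each gene. RAB17 and RAB39 show the widest gaps between the groups, and the most abundant members, such as RAB7A and RAB10, show narrow spread within each group.

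Recycling RABs had the smallest median size of log2 fold change among the roles, 0.24, and none of the 6 tested reached 1 in size. RAB14 and RAB4A were higher, RAB11A, RAB11B and RAB15 were lower, and RAB35 did not pass the threshold. Those called came to 83.3% of the tested recycling RABs, beside 85.9% of all genes tested. RAB14, which acts between Golgi and endosomes, rose by 0.49 ± 0.04 on the log2 scale (adjusted p = 1.15e-14). RAB11A, the main RAB of the slow recycling endosome, changed by -0.28 ± 0.03 (adjusted p = 1.80e-09). RAB15, an endocytic RAB best known from neurons, had the largest fall of this group, -0.88 ± 0.08 (adjusted p = 3.63e-13). RAB35, which returns cargo fast to the plasma membrane, had a log2 fold change of 0.07 with a 95% interval of -0.00325 to 0.15 (adjusted p = 0.0691). It passed without labelled knockdown replicate 1 (adjusted p = 0.0279) or scramble replicate 3 (adjusted p = 0.0498).

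Late endosomal, lysosomal and autophagic members held the change with the most reads behind it. RAB7A directs late endosomes to lysosomes and had the highest CPM of all members. It stood at 264.8, 267.7 and 262.2 CPM in the libraries labelled knockdown, against 515.4, 505.7 and 504.4 in the scramble libraries. The log2 fold change was -0.94 ± 0.03 (adjusted p = 7.93e-28), a ratio of 0.521. The lowest scramble library lay far above the highest library labelled knockdown.

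RAB32 and RAB38, which supply enzymes to lysosome-related organelles such as melanosomes, went in opposite directions. RAB38 stood at 13.2, 13.1 and 11.4 CPM in the libraries labelled knockdown, against 33.6, 34.9 and 36.6 in the scramble libraries, a log2 fold change of -1.48 ± 0.07 (adjusted p = 1.13e-21). RAB32 stood at 48.8, 47.6 and 46.1 CPM in the libraries labelled knockdown, against 24.9, 23.8 and 26.6 in the scramble libraries, a log2 fold change of 0.92 ± 0.06 (adjusted p = 6.90e-18). Neither gene overlapped between the groups, and the melanocyte gene MLANA had no reads.

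RAB9A and RAB9B, which return cargo from late endosomes to the Golgi, rose by 0.25 ± 0.05 and 0.28 ± 0.09 on the log2 scale. RAB7L1, an activator of the kinase LRRK2, rose by 0.43 ± 0.05, and RAB12 rose by 0.21 ± 0.05. RAB24, linked to autophagy, had a log2 fold change of -0.12 ± 0.06 (adjusted p = 0.0415), and this call was lost without labelled knockdown replicate 1 or 3 or scramble replicate 1 or 2, with adjusted p of 0.0715 to 0.161.

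Of 13 tested RABs of the ER and Golgi, 9 were higher and 4 were lower. All 13 were called, beside 85.9% of all genes tested (43.4% higher and 42.5% lower). The largest fall of any tested member was that of RAB39, which was assigned to this group although some of its described roles lie elsewhere. RAB39 (RAB39A), which has been linked to phagosomes and autophagy in immune cells, had 12, 17 and 15 reads in the libraries labelled knockdown, against 272, 198 and 239 in the scramble libraries. Its level was 0.581 ± 0.0903 CPM in the libraries labelled knockdown and 10.5 ± 1.02 in the scramble libraries, a log2 fold change of -4.17 ± 0.18 (adjusted p = 2.16e-23). PTPRC, a marker of immune cells, was at 0.145 CPM in the libraries labelled knockdown and 0.133 in the scramble libraries.

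RAB36 and RAB6B made up the large increases at the Golgi. RAB36, a relative of RAB34, had 159, 143 and 184 reads in the libraries labelled knockdown, against 49, 36 and 42 in the scramble libraries, a log2 fold change of 1.76 ± 0.16 (adjusted p = 5.14e-13). RAB6B, the neuronal form of RAB6, had 28, 21 and 42 reads in the libraries labelled knockdown, against 16, 7 and 10 in the scramble libraries, a log2 fold change of 1.28 ± 0.33 (adjusted p = 6.22e-04). The libraries labelled knockdown lay above the scramble libraries for both genes, with few reads for RAB6B. RAB6B passed the low-count filter only through the libraries labelled knockdown, so its p-value is a description. RAB43, with 28, 37 and 24 reads in the libraries labelled knockdown and 18, 11 and 18 in the scramble libraries, changed by 0.74 ± 0.29 (adjusted p = 0.0176). That call was lost without labelled knockdown replicate 2 (adjusted p = 0.111) or scramble replicate 2 (adjusted p = 0.0836).

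The other members of this route changed by less than 1 in size on the log2 scale. RAB1A and RAB1B, which tether vesicles from the ER to the Golgi, went in opposite directions: RAB1A rose by 0.17 ± 0.03 on the log2 scale (adjusted p = 2.25e-05). RAB1B stood at 248.6, 249.4 and 251.2 CPM in the libraries labelled knockdown, against 271.4, 287.2 and 271.7 in the scramble libraries, a log2 fold change of -0.15 ± 0.03 (adjusted p = 5.72e-05). RAB2A rose by 0.46 ± 0.04 while RAB2B changed by -0.55 ± 0.07. RAB6A, RAB18, RAB33B and RAB34 rose by 0.37 to 0.56, and RAB30 changed by -0.87 ± 0.08 (adjusted p = 6.86e-13).

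All 5 tested members of the ciliary and divergent branches were higher, beside 43.4% of all genes tested. RAB40C, which carries a SOCS box and recruits a ubiquitin ligase, stood at 21.9, 24.1 and 20.9 CPM in the libraries labelled knockdown, against 10.9, 11.8 and 9.90 in the scramble libraries, a log2 fold change of 1.04 ± 0.08 (adjusted p = 8.85e-15). RAB42 had 39, 53 and 32 reads in the libraries labelled knockdown, against 6, 2 and 8 in the scramble libraries, a log2 fold change of 2.75 ± 0.36 (adjusted p = 6.19e-09). Neither gene overlapped between the groups. RAB42 passed the low-count filter only through the libraries labelled knockdown, so its p-value is a description. RAB40B rose by 0.80 ± 0.13, RAB28, known from photoreceptor cilia, by 0.64 ± 0.06, and RAB23, a negative regulator of Hedgehog signalling, by 0.25 ± 0.05.

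The 12 members that were not tested had 21 reads or fewer in each group. RAB19, RAB39B, RAB3C, RAB41, RAB4B, RAB4B-EGLN2 and RAB9BP1 had 0 reads in each of the 6 libraries. A count of 0 leaves room for at most 0.0397 CPM in the libraries labelled knockdown and 0.0448 CPM in the scramble libraries (3 reads over a group). RAB25, an epithelial relative of RAB11, had 0 reads in the libraries labelled knockdown and 1 in the scramble libraries. RAB40AL had 0, 1 and 1 reads in the libraries labelled knockdown, against 9, 9 and 3 in the scramble libraries, which is 11.9-fold more in the scramble libraries with a 95% counting interval of 2.90 to 104. RAB40AL shares 80.8% of its windows of 50 bases with other genes, led by RAB40A, and lies to 51.6% antisense to another gene, so its reads are uncertain. RAB40A had 3 reads and RAB6C had 1 in the libraries labelled knockdown, against 0 in the scramble libraries. Counts of this size do not order the groups beyond counting error, except for RAB40AL and for RAB33A, which had 4, 5 and 2 reads in the libraries labelled knockdown against 0 in each scramble library.

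Some of these rows share sequence or position with other genes, so that their counts are less certain. On GENCODE release 29, RAB43 lies to 88.6% in exons of the readthrough row ISY1-RAB43, which had 0 reads, and RAB4B to 67.4% in exons of its readthrough neighbours. RAB24 overlaps MXD3 on the same strand over 70.4% of its exons, and MXD3 was higher in the libraries labelled knockdown (643, 634 and 611 reads, against 254, 227 and 249 in the scramble libraries). RAB23 overlaps BAG2 on the other strand over 58.8%, and RAB13 overlaps AL358472.6 over 58.0%. RAB6A shares 30.5% of its windows of 50 bases with other genes, led by RAB6C. Among the 5 members with the highest mean CPM, RAB8A shares 38.9% of its windows with other genes, RAB5C 36.2% and RAB1B 34.8%. Windows were compared on both strands, so that genes at the same place count as sharing. The exons of RAB8A and RAB1B lie to 36.0% and 42.55% antisense to other genes. Those of RAB5C overlap another gene on the same strand over 41.5%. The RAB6-like row WTH3DI, which the symbol rule does not reach, had 138, 129 and 118 reads in the libraries labelled knockdown, against 536, 396 and 520 in the scramble libraries. Of the 51 tested members, 25 shared under 1% of such windows with any other gene and 16 shared over 5%. Among the latter were RAB3D (19.7%), RAB42 (12.9%, led by RAB42P1), RAB3A (7.84%) and RAB6B (6.10%), whose log2 fold changes exceeded 1 in size. The other members with changes of that size shared under 5%. The part of shared reads in these values was not tested.

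Summed over the 63 members, RAB RNA was 3668 ± 19.2 CPM in the libraries labelled knockdown and 3823 ± 27.2 CPM in the scramble libraries (SD, n = 3 each), a ratio of 0.960 (two-sided exact permutation p = 0.1, the smallest that 3 against 3 allow). As a share of all reads in genes, without further scaling, the sums were 0.373% in the libraries labelled knockdown and 0.376% in the scramble libraries (exact permutation p = 0.2, n = 3 each). RAB7A decides the direction of the sum. Without it, a choice made after its value was seen, the remaining members summed to 3403 ± 16.5 CPM in the libraries labelled knockdown and 3314 ± 23.8 in the scramble libraries (exact permutation p = 0.1, n = 3 each).

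Divided by transcript length (1 GENCODE transcript per gene), the order of the most abundant members differed between the groups. RAB7A stood at 118 CPM per kilobase in the libraries labelled knockdown and 227 in the scramble libraries. RAB5C stood at 124 CPM per kilobase in the libraries labelled knockdown and 150 in the scramble libraries, and RAB1B at 124 in the libraries labelled knockdown and 138 in the scramble libraries. RAB7A was thus first in the scramble libraries and behind RAB1B and RAB5C in the libraries labelled knockdown, where RAB1B and RAB5C differed by less than their spread. RAB34, which acts in lysosome positioning and early ciliogenesis, came next in the mean of the groups, with 93.0 CPM per kilobase in the libraries labelled knockdown and 65.4 in the scramble libraries.

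Large changes sat among members of low abundance. Of 13 tested members with a mean under 10 CPM, 10 had a log2 fold change of 1 or more in size (76.9%), beside 51.5% of all tested genes at that level. Of 38 tested members at 10 CPM or more, 3 did (7.90%), beside 23.3% of all tested genes at that level. The 3 were RAB31, RAB38 and RAB40C. The low group holds the 4 members that passed the filter through the libraries labelled knockdown alone, so its share is a description.

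**Figure D3:**
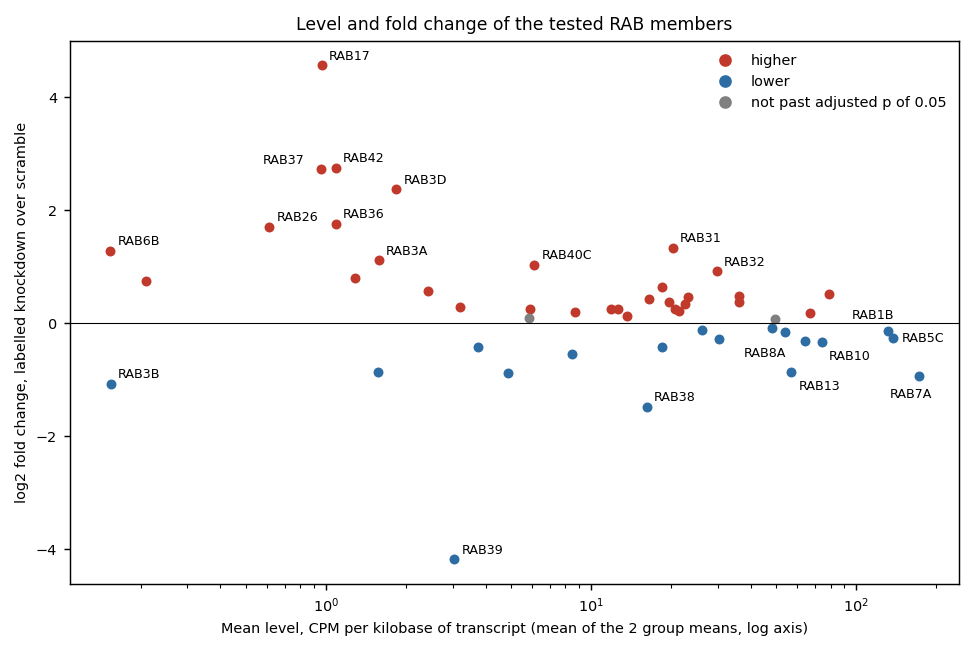
Log2 fold change (y axis, labelled knockdown over scramble) against mean level in CPM per kilobase of transcript (x axis, log scale) for the 51 tested RAB members. Points far from 0 lie mostly at the left, at low levels, and RAB7A lies furthest to the right at -0.94.

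Paralogs share biochemical roles, so the mix within a subfamily was compared as each member's share of the subfamily's reads. These are shares of reads and not of molecules, since longer transcripts give more reads. Over 13 subfamilies, 30 shares were compared between groups by a two-sided exact permutation test, and 18 reached the smallest p of 0.1 that 3 against 3 libraries allow. Shares of a subfamily add up to its whole, and where only a pair of members had reads they mirror each other. The 30 shares, and the 18 among them, are thus not independent comparisons. The lowest Benjamini-Hochberg adjusted value over the 30 was 0.167, so no share can pass a threshold of 0.05 in this design.

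The widest shift was between RAB32 and RAB38. RAB32 made up 78.7, 78.5 and 80.2% of their reads in the libraries labelled knockdown, against 42.6, 40.5 and 42.1% in the scramble libraries. In the RAB3 subfamily, RAB3D held 74.2% ± 2.07 of the reads in the libraries labelled knockdown and 37.8% ± 2.83 in the scramble libraries (SD, n = 3 each), while RAB3B held 7.22% ± 0.284 in the libraries labelled knockdown and 39.3% ± 5.46 in the scramble libraries. RAB31 held 49.0% ± 0.251 of RAB22A and RAB31 reads in the libraries labelled knockdown and 29.2% ± 0.529 in the scramble libraries. The shares of these 4 genes did not overlap between the groups, whereas RAB3A shares did: 20.4, 18.7 and 16.6% in the libraries labelled knockdown, against 18.4, 26.8 and 23.5% in the scramble libraries.

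Shifts were smaller in the RAB2, RAB5, RAB1 and RAB9 subfamilies. RAB2A held 83.7% ± 1.06 of RAB2 reads in the libraries labelled knockdown and 71.8% ± 1.66 in the scramble libraries. RAB5B held 27.6% ± 0.510 of RAB5 reads in the libraries labelled knockdown and 20.5% ± 0.590 in the scramble libraries, and RAB1A held 41.0% ± 0.0334 of RAB1 reads in the libraries labelled knockdown and 35.8% ± 1.15 in the scramble libraries. RAB9A held 77.7% ± 0.942 of RAB9 reads in the libraries labelled knockdown and 78.0% ± 0.372 in the scramble libraries, a difference within the spread between libraries (exact permutation p = 0.9, n = 3 each).

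**Figure D4:**
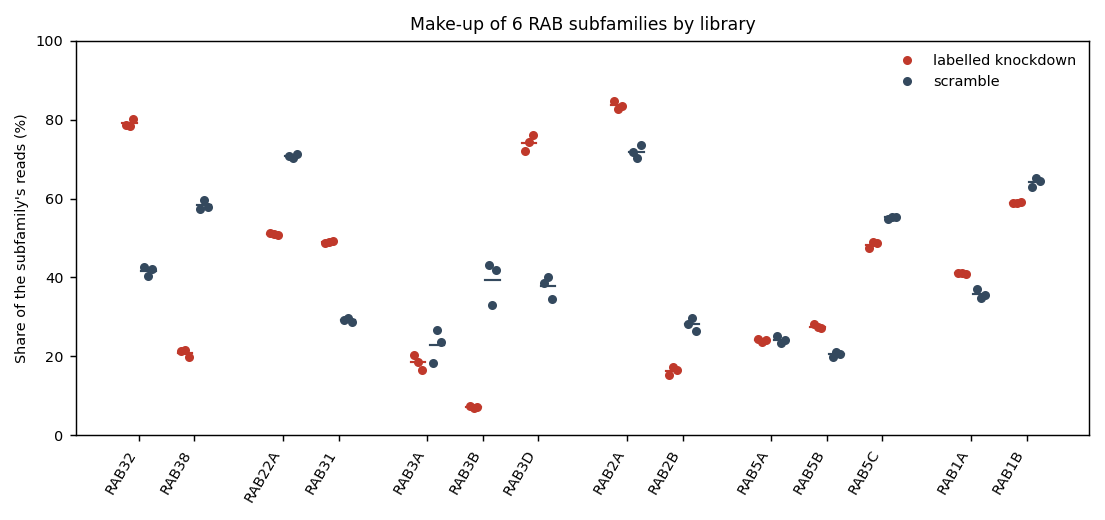
Share of its subfamily's reads taken by each member of 6 RAB subfamilies (y axis, percent), with 1 point per library, a short line at each group mean, and labelled knockdown to the left of scramble for each gene. RAB32 takes 79.1% of RAB32 and RAB38 reads in the libraries labelled knockdown and 41.7% in the scramble libraries, whereas the RAB5A points of the groups overlap.

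The placing of the C-terminal cysteine codons, which the symbol rule did not use, cut across the directions. Of 14 tested members whose last 2 codons encode cysteine, as in RAB31 and RAB32 above, 10 were higher and 3 were lower. Of 15 with the cysteine codons separated by 1 codon, as in RAB3D, RAB7A and RAB39, 10 were higher and 4 were lower. Members that place 2 cysteine codons elsewhere near the end, as RAB17 and RAB38 do, were higher in 9 and lower in 8 of 17. A single cysteine codon was found in 5 tested members, of which RAB23 and RAB28 were higher and RAB8A, RAB8B and RAB13 were lower. Over all 51 tested members, 31 were higher and 18 were lower, beside 43.4% higher and 42.5% lower of all genes tested. Each class held changes in both directions, and no difference between classes was tested.

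Promoters of the members that carry the extremes are shown for comparison of their sequence. Windows of 250 bases before to 50 after the start of a gene came from RefSeq on GRCh38.p14, and 50 members had one. The window of RAB17, which had the largest increase, is chr2:237590685-237590984 on the minus strand. That of RAB39 (RAB39A), with the largest fall, is chr11:107928198-107928497 on the plus strand. That of RAB7A, the member with the most reads, is chr3:128725933-128726232 on the plus strand. Capitals mark matches to the GC box letters GGGCGG on either strand.
RAB17: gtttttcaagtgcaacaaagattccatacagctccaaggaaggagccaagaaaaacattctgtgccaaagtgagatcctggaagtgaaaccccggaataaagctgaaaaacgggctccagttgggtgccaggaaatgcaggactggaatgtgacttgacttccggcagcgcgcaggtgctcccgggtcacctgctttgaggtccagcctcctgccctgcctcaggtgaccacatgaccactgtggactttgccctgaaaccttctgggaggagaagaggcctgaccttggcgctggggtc
RAB39: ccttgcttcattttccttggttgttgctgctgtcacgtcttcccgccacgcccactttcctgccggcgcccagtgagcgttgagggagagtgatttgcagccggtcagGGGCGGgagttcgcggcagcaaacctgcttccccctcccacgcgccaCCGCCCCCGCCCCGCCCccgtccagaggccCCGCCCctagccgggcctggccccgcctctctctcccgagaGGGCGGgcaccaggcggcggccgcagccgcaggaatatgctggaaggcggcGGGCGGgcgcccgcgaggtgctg
RAB7A: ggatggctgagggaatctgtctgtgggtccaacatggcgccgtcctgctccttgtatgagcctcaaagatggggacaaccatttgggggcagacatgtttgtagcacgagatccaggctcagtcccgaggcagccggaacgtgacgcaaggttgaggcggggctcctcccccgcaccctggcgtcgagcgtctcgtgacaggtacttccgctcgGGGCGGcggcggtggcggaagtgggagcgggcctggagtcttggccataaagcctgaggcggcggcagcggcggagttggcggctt

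Besides the GC box, windows were searched on both strands for an E-box (CACGTG, as read on both strands), the box whose letters are CCAAT, the letters TATAAA of the TATA box, and an AP-1 site (spelled TGANTCA for the search). No motif contains another. The RAB17 window held no match to any of them, nor a GC box, and 54.7% of its bases were G or C. The RAB39 window held several GC boxes with 72.0% G or C, and the RAB7A window held 1 GC box with 65.0%. Among 41 tested members with a window, 36 held a GC box (87.8%), beside 56.3% of the 22199 windows of all protein-coding genes. It was present in 19 of 23 members that were higher and in 15 of 16 that were lower. An E-box was present in 14.6% of the tested members' windows and 8.34% of all, a CCAAT box in 24.4% and 34.7%, an AP-1 site in 7.32% and 6.15%, and a TATA box in 0 of 41 and 9.47%. The 41 members had passed the low-count filter, whereas the windows of all protein-coding genes include genes that did not. These shares, that of the GC box included, thus do not compare like sets. RAB40A and RAB6C, which were not tested, each held a TATA box. Median GC content was 67.7% for members that were higher and 67.5% for those that were lower. A match to these letters is a description and not a binding site.

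Of 11 genes of prenylation and membrane extraction, which attach RABs to membranes and remove them, 7 were higher and 4 were lower. All 11 passed the threshold, beside 85.9% of all genes tested, so the count itself is near the background. RABGGTB, the catalytic subunit of RAB GGTase, averaged 92.1 ± 2.50 CPM in the libraries labelled knockdown and 238 ± 6.48 in the scramble libraries, a log2 fold change of -1.37 ± 0.04 (adjusted p = 4.14e-30). Its partner RABGGTA rose by 0.27 ± 0.06 on the log2 scale. The escort protein CHML (REP2) averaged 115 ± 3.48 CPM in the libraries labelled knockdown and 259 ± 4.85 in the scramble libraries (-1.17 ± 0.03, adjusted p = 1.61e-28), and the other escort, CHM (REP1), changed by -0.35 ± 0.05. GDI2, which extracts RABs from membranes, changed by -0.09 ± 0.03. RABAC1, a RAB acceptor at the Golgi, averaged 45.3 ± 2.73 CPM in the libraries labelled knockdown and 13.6 ± 1.48 in the scramble libraries (1.74 ± 0.07, adjusted p = 4.89e-24).

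Exchange factors, which switch RABs on, were higher in 20 and lower in 13 of 37 tested, with 4 not past the threshold. The share called was 89.2%, near the 85.9% of all genes tested. These counts include DENND1C and RINL, which passed the low-count filter only through the scramble libraries. They also include DENND2D and FAM116B, which passed it only through the libraries labelled knockdown. The calls of these genes are a description. The median log2 fold change of the exchange factors was 0.27, with or without DENND1C set at its bound. DENND1C had 0 reads in each library labelled knockdown, against 334, 319 and 238 in the scramble libraries, at least 335-fold lower (against 3 reads over the group). DENND2D had 196, 201 and 171 reads in the libraries labelled knockdown, against 0, 0 and 1 in the scramble libraries, a ratio of 503 with a 95% counting interval of 89.9 to 19900. SBF1 (MTMR5) averaged 145 ± 2.95 CPM in the libraries labelled knockdown and 79.3 ± 5.22 in the scramble libraries (0.87 ± 0.04, adjusted p = 1.63e-21). RAB3IP (Rabin8), which activates RAB8, averaged 28.2 ± 1.76 CPM in the libraries labelled knockdown and 60.3 ± 2.26 in the scramble libraries (-1.10 ± 0.06, adjusted p = 6.21e-21).

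GTPase-activating proteins, which switch RABs off, were higher in 18 and lower in 12 of 33 tested, with 3 not past the threshold and a median log2 fold change of 0.19. Those called came to 90.9% of this list, beside 85.9% of all genes tested. TBC1D8 averaged 23.8 ± 1.22 CPM in the libraries labelled knockdown and 89.3 ± 2.88 in the scramble libraries (-1.91 ± 0.05, adjusted p = 1.15e-29). TBC1D2 (Armus), which acts on RAB7, averaged 108 ± 2.79 CPM in the libraries labelled knockdown and 33.5 ± 1.69 in the scramble libraries (1.69 ± 0.05, adjusted p = 3.90e-29). TBC1D25, linked to autophagy, rose by 1.88 ± 0.06 and SGSM3 by 2.25 ± 0.07 on the log2 scale. All 4 had groups that did not overlap.

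Effectors, which read the GTP form, were higher in 19 and lower in 20 of 45 tested, with 6 not past the threshold and a median log2 fold change of -0.03. The share called was 86.7%, close to the 85.9% of all genes tested. OPTN (optineurin), a RAB8 effector and autophagy receptor, averaged 215 ± 4.73 CPM in the libraries labelled knockdown and 54.9 ± 1.83 in the scramble libraries (1.97 ± 0.04, adjusted p = 2.87e-34). RAB11FIP5, a RAB11 effector of recycling endosomes, averaged 171 ± 0.642 CPM in the libraries labelled knockdown and 54.1 ± 5.17 in the scramble libraries (1.67 ± 0.05, adjusted p = 2.27e-28). RIMS2, a RAB3 effector of regulated exocytosis, averaged 4.89 ± 0.638 CPM in the libraries labelled knockdown and 38.1 ± 2.68 in the scramble libraries (-2.96 ± 0.09, adjusted p = 9.12e-29). BICD1, which links RAB6 vesicles to dynein, averaged 8.01 ± 0.416 CPM in the libraries labelled knockdown and 35.5 ± 2.31 in the scramble libraries (-2.15 ± 0.08, adjusted p = 6.80e-26).

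**Figure D5:**
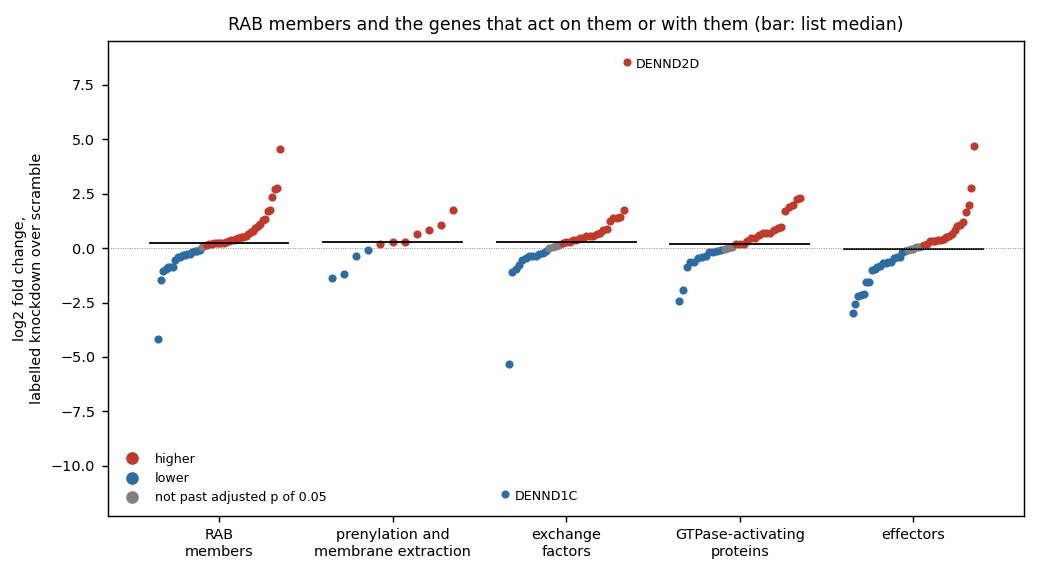
Log2 fold change (y axis, labelled knockdown over scramble) of tested RAB members and of genes that act on or with them, with 1 point per gene and a bar at each list's median. Each list spreads to both sides of 0; the positions of DENND1C and DENND2D depend on the fit, since 1 group has 0 or 1 read.

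Set beside their RAB, the partners did not follow 1 direction. These groupings, and the genes named in them, were put together after the values were seen. Around RAB7A, which was lower, the exchange factor subunit MON1B changed by -0.98 ± 0.05 and MON1A by 0.22 ± 0.07. Their partner CCZ1 rose by 1.74 ± 0.20, in counts that may share reads with its near-identical copy CCZ1B. PLEKHM1, which tethers late endosomes to lysosomes, rose by 1.06 ± 0.06. RILP and FYCO1, which link RAB7 to motors, had log2 fold changes of -0.03 and -0.10 and did not pass the threshold. Another GTPase-activating protein of RAB7, TBC1D15, changed by -0.65 ± 0.06.

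Around RAB32 and RAB38, the exchange factor subunits HPS1 and HPS4 rose by 1.23 ± 0.07 and 0.37 ± 0.06, and ANKRD27 (VARP), which binds both RABs, rose by 0.65 ± 0.05. Around RAB5, the effectors EEA1, RABEP1, APPL1 and APPL2 changed by -0.85 ± 0.04, -0.83 ± 0.04, -0.63 ± 0.04 and -0.66 ± 0.05, while the exchange factor RABGEF1 rose by 0.27 ± 0.04 and RIN1, RIN2 and RIN3 changed by -0.38 ± 0.06, -0.45 ± 0.04 and -0.38 ± 0.05. EEA1 tethers early endosomes, RABEP1 binds RABGEF1, and the APPL proteins mark signalling endosomes.

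Around RAB27, the effector SYTL1 had 97, 87 and 90 reads in the libraries labelled knockdown, against 2, 4 and 3 in the scramble libraries (4.70 ± 0.32). SYTL1, which the effector counts above include, passed the low-count filter only through the libraries labelled knockdown, so its fold change is a description. SYTL3 and EXPH5 changed by -2.22 ± 0.16 and -1.57 ± 0.10, SYTL4 and UNC13D rose by 0.37 ± 0.07 and 0.19 ± 0.03, and SYTL2 and MLPH did not pass the threshold (0.04 and 0.03). Around RAB11, RAB11FIP1 rose by 1.19 ± 0.05, RAB11FIP2 changed by -0.67 ± 0.05, and the motor MYO5B had 100, 93 and 88 reads in the libraries labelled knockdown, against 495, 497 and 489 in the scramble libraries (-2.57 ± 0.10). Around RAB8 and RAB13, which were lower, MICALL2 had 484, 528 and 450 reads in the libraries labelled knockdown, against 67, 67 and 56 in the scramble libraries (2.77 ± 0.11), and MICALL1 rose by 0.83 ± 0.05.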

How the data were processed

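RNA of 6 libraries (3 labelled knockdown, 3 scramble) was measured as single reads of 50 bases from a stranded mRNA kit, per the labels' protocols. Per the submitters' processing notes, reads were handled with bcl2fastq, TopHat2 2.0.8b and HTSeq on the build hg19. Whether HTSeq used strand, how it treated overlaps and which annotation it read is not given in the sources used here. The authors deposited raw read counts per gene, without normalization. Summary lines for reads in no gene (11.1% and 14.7% of reads in the labelled knockdown and scramble groups), in several genes or at several places were left out of library sizes.

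Genes kept by edgeR's filterByExpr (4.0.16, R 4.3.3; at least 10 reads in a library of median size, in 3 libraries) were scaled by TMM. The robust, two-sided quasi-likelihood F test had group as its only term, and p-values were adjusted by Benjamini-Hochberg over 13606 genes. CPM are scaled by TMM factors of 0.980 to 1.02. The fit was tested on simulated data. Within a group, libraries differed beyond sampling noise (1.67 to 3.45 chi-square units per degree of freedom), and each was counted as 1 sample. Reads carry no molecular identifiers, so counting intervals and floors cover counting error only. The 95% intervals of log2 fold changes come from the quasi-likelihood fit and include the spread between libraries. DESeq2 1.42.0 and limma-voom (limma 3.58.1) were alternatives, with other scalings, filters, thresholds, a replicate block and each library left out.

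Members and lists were chosen with earlier results of these data known. Values in every library are given for tested members whose log2 fold change is 1 or more in size and the 5 with the highest mean CPM, and from each list of regulators the 4 smallest adjusted p-values among genes of at least 5 CPM in the higher group. Other genes with values were chosen after these were seen. Of the genes the rule chose, 1 is not reported here. RAB symbols in the lists that the files do not hold were not analysed here. GENCODE (GRCh38) and RefSeq gave names, lengths, overlaps and sequences only, for all 63 members except promoters.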

Additional observations from a re-analysis of the deposited data

Results flagged for a closer look

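RAB33A, a Golgi RAB known from neurons and immune cells, fell below the low-count filter and entered no test. It had 4, 5 and 2 reads, 11 in all, in the 3 libraries labelled knockdown and 0 in each of the 3 scramble libraries, at least 3.25-fold higher against a limit of 3 reads over the scramble group. It was singled out because reads appeared in every library labelled knockdown and in none of the scramble libraries. A source of the reads was not tested.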

How the results depend on the processing

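No tested RAB member changed direction under any of the alternatives run. Counts of calls moved by over 1.5 times only under a test against a 1.5-fold change, which left 12 RAB members higher and 7 lower, 3 and 2 of the prenylation and extraction genes, 8 and 5 of the exchange factors, 10 and 3 of the GTPase-activating proteins, 8 effectors higher, and 3307 and 2944 of all genes. Without 1 library at a time, 29 to 32 RAB members were higher and 16 to 18 lower, and the summed RAB CPM ratio ran from 0.951 to 0.964. Under library totals it was 0.995, and all genes shifted by 0.05 on the log2 scale. SCUBE3 turned to -0.0503 without scramble replicate 3, with log2 fold changes of -0.0503 to 0.0796 over the runs without 1 library. The replicate block changed 1 member's call, RAB35, which passed with 0.07 (adjusted p = 0.0347). Libraries with the same number did not deviate together (r of 0.0779, 0.0623 and -0.00188). RAB20, RAB24, RAB5A and RAB43 lost their call under DESeq2 (adjusted p = 0.0832, 0.0902, 0.0506 and 0.0705) and under some runs without 1 library, and RAB24 and RAB5A also under library totals (0.232 and 0.371). RAB27B (0.0178) and RAB35 (0.00286) passed under library totals. The causes were not tested. Depth limits what can be said of RAB6B, RAB43, RAB26 and RAB42, with under 60 reads in every library.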
